A study of Mus musculus with 2 samples.

Results

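Single-cell RNA-Seq libraries of mouse embryos were made from tissue around the hindbrain from which cardiac neural crest cells leave. Cells selected as neural progenitors of the middle part of the neural tube wall were examined in them. The cells were selected on their own counts of unique molecular identifiers (UMIs, one per captured transcript). A cell was kept when it had at least 2 UMIs summed over Sox1, Sox2 and Sox3, at least 1 UMI summed over Pax6, Dbx1, Dbx2 and Irx3, and 0 UMIs of Wnt1, Wnt3a, Lmx1a, Gdf7, Olig3, Nkx6-1, Olig2, Shh, Foxa2, Epcam and Sox10. Gdf7 had no column in either table, so it excluded no cell. The rule kept 407 of 21723 cells. Of these, 216 were among 11958 WT cells (1.81%, 95% Clopper-Pearson interval 1.58 to 2.06) and 191 were among 9765 KO cells (1.96%, 1.69 to 2.25). They are called intermediate progenitors, or members, below. Their share of the library was 0.11 higher in KO on the log2 scale, with a counting interval of -0.17 to 0.40 that spans 0.

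Both libraries came from C57BL/6 embryos at E9.5, dissected between the otic placode and the fourth somite. The WT embryos were Prdm6+/+; Wnt1-Cre2; ZsGreen1 and the KO embryos were Prdm6f/f; Wnt1-Cre2; ZsGreen1, so both carried the Cre transgene and the reporter, and the groups differed by the floxed allele of Prdm6, a PR domain gene of the histone methyltransferase family. Cre was driven by the Wnt1 promoter, which is active in the dorsal neural tube and the neural crest. Cells with a Wnt1 UMI were left out by the rule, the tables had no reporter column, and whether the floxed allele had been recombined in any of these cells could not be read. Each genotype was 1 library and cells could not be tied to embryos. No test between genotypes was possible, and every interval given here covers counting error only. Because fewer transcripts per cell and fewer cells with a transcript give the same sum, levels over a group of cells do not separate them.

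The neural tube is built from dividing progenitors that all express SoxB1 transcription factors (Sox1, Sox2 and Sox3), which hold the cells in an undifferentiated neural state. BMP and Wnt ligands from the roof plate and Sonic hedgehog from the notochord and floor plate divide the wall into bands, each marked by its own transcription factors. Pax6, Irx3, Dbx1 and Dbx2 mark the middle bands, Olig3 and Wnt1 mark the dorsal bands, and Nkx6-1 and Olig2 mark the ventral bands. At E9.5 the hindbrain and upper spinal cord are at the stage when these bands are being set, and the dorsal edge releases neural crest cells.

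The members held 416315 UMIs in WT and 418552 in KO. Their median depth was 1825 and 2057 UMIs per cell, against 1597 and 1703 over the whole libraries. The libraries shared 26 cell barcodes, none of which belonged to a member. Several transcripts differed between the libraries as a whole. Over all cells, Prdm6 had 104 UMIs in WT and 59 in KO (log2 ratio -0.68, -1.17 to -0.21). The ribosomal RNA-related transcripts Gm42418 and AY036118 were 1.20 and 1.21 higher in KO on the log2 scale. Xist was at 159 and 334 CPM (UMIs per 1000000 UMIs of the same cells) in WT and KO while the Y-linked genes together went from 108 to 52.1. Xist had a UMI in 37 WT (17.1%) and 85 KO members (44.5%), so sex and genotype cannot be told apart. Embryonic globin RNA had at least 1 UMI in 216 of 216 WT and 186 of 191 KO members. Its level in members was 8813 and 2683 CPM, against 14114 and 7339 in all other cells.

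The genes of the rule were first described in the members, without a test, since they chose the cells. Sox2 (GRCm38 chr3:34650405-34652461) was found in 157 of 216 WT and 153 of 191 KO members. Sox1 (chr8:12395295-12400126) was found in 124 and 90, and Sox3 (chrX:60891366-60893430) in 136 and 107. UMIs of more than 1 of these 3 genes were present in 164 WT (75.9%) and 131 KO members (68.6%). Irx3 (chr8:91798525-91802067), an Iroquois homeobox gene, was found in 136 WT and 116 KO members. Pax6 (chr2:105668900-105697364), a paired-box gene of the middle and ventral bands, was found in 106 and 101. Dbx1 (chr7:49631499-49636849), which marks progenitors of commissural interneurons, was found in 23 and 16, and Dbx2 (chr15:95623563-95655960) in 12 and 6. The reads were not stated to be counted by strand in the sources used here. Pax6 and Irx3 each overlap an antisense gene, Pax6os1 and Irx3os, that has its own column, so reads of these pairs may be divided between them.

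The members were of mixed kinds by these genes. Irx3 alone put 84 WT (38.9%) and 79 KO cells (41.4%) among them, and Pax6 alone put 59 (27.3%) and 61 (31.9%). Pax6 with Irx3 and no Dbx gene was seen in 38 (17.6%) and 30 (15.7%). Dbx1 or Dbx2 was seen in 35 WT (16.2%, 11.6 to 21.8) and 21 KO members (6.94% to 16.3%), and the intervals overlapped. Many members stood at the edge of the rule. Exactly 2 Sox UMIs together with 1 patterning UMI were found in 94 WT and 80 KO members (43.5% and 41.9%). Just outside it lay 470 WT and 429 KO cells with 1 Sox UMI, and 432 WT and 351 KO cells with enough Sox UMIs but no patterning UMI. The plot of members by patterning gene shows that no combination had intervals that were apart between the libraries.

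**Figure D1:**
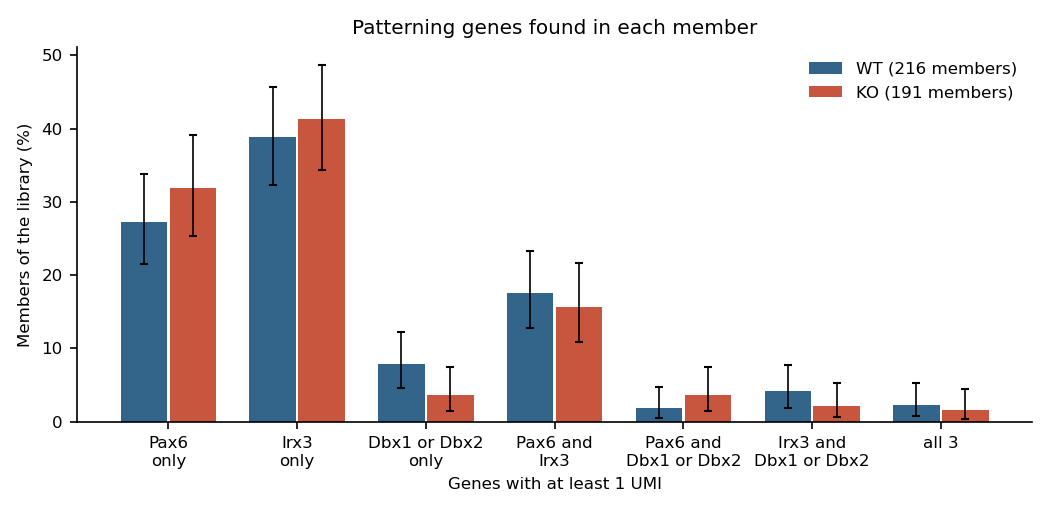
Share of the members of each library (y axis, %) by which of the 4 patterning genes had at least 1 UMI (x axis); bars are WT (216 members) and KO (191 members), and error bars are 95% Clopper-Pearson intervals. Irx3 alone (38.9% and 41.4%) and Pax6 alone (27.3% and 31.9%) make up most members, and the error bars of WT and KO overlap in every combination.

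Free RNA in droplets gives UMIs in cells that do not make a transcript, so erythroid cells (at least 20 globin UMIs) served as the background. The members themselves held 3669 globin UMIs in WT and 1123 in KO, and the number of members past this cut is not given. The mesenchymal gene Twist1 had a UMI in 19.2% of WT and 14.8% of KO erythroid cells without a Sox UMI. These cells are therefore an approximate background. Pax6 had a UMI in 32 of 537 WT erythroid cells without a Sox UMI (5.96%) and in 6 of 182 such KO cells. Irx3 had a UMI in 9.31% and 7.69%. Dbx1 had a UMI in 18 and 0 of these cells and Dbx2 in 4 and 1. The median depths of these cells were 1888 and 2401 UMIs. Over all erythroid cells Sox2 had a UMI in 15.9% of WT and 15.1% of KO, Sox1 in 8.83% and 5.71%, and Sox3 in 8.70% and 9.39%. Of cells with at least 2 Sox UMIs, 31.5% in WT and 34.3% in KO had a patterning UMI. The numbers of members with a single patterning UMI are to be read beside these shares.

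Genes that the rule did not use gave a view of what the members were. Sfrp2, which encodes a secreted Wnt inhibitor, stood first among the genes with at least 100 UMIs when ranked by the ratio of members over all other cells, taking the smaller ratio of the 2 libraries with 10 CPM added to each level. Its level was 855 and 917 CPM in WT and KO members and 207 and 179 in other cells, a ratio of 3.99 and 4.91. Sfrp2 had a UMI in 109 WT members (50.5%) and 98 KO members (51.3%), and in 86 of 537 and 29 of 182 erythroid cells. At 1000 UMIs per cell these shares were 38.7% and 31.4% against 6.19% and 8.47%. Sfrp2 thus lay above the level of erythroid cells in both libraries. The antisense gene Gm26771, which overlaps Sfrp2, was also among the leading 10, at 192 and 186 CPM.

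Foxb1, a forkhead gene of the neural tube, was at 135 and 131 CPM in WT and KO members and at 23.8 and 27.4 in other cells (ratios 4.28 and 3.78). Foxb1 overlaps an antisense gene with its own column. Cyp26b1, which degrades retinoic acid, was at 240 and 315 against 62.5 and 68.4 (ratios 3.45 and 4.15). Pou3f2, a POU factor of neural progenitors, was at 288 and 291 against 102 and 114. Msi1, an RNA-binding protein of neural stem cells, was at 536 and 447 against 256 and 229, and Sall2 was at 440 and 475 against 215 in both libraries. Cntfr, Syt11 and Tenm4 completed the 10, with ratios between 1.94 and 2.44. The same cells were chosen on neural genes, so these ratios describe the members and test nothing. None of the 10 reached 2-fold in both libraries over the dorsal or ventral neural cells that are described below.

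Markers of other cell types were also found in the members. Of the 9 endoderm markers, 4 were at 0 in WT and 5 in KO members, and 7 members of each library had any UMI of the list. Endothelial markers had a UMI in 30 WT and 18 KO members. Mesoderm and mesenchyme markers summed to 711 and 576 CPM in WT and KO members, against 1129 and 973 in other cells. Placode and surface ectoderm markers summed to 185 and 208, against 331 and 311. Neural crest markers other than Sox10 summed to 428 and 325, against 607 and 562, with Sox9 (74 and 55 UMIs) and Ednrb (45 and 28) giving most of them and Foxd3, the early crest factor, at 2 and 0 UMIs. Cardiac muscle markers were at 2152 and 1180, against 3932 and 3195. The sum of every class was lower in members than in other cells. Single genes could go the other way. Ednrb was at 108 CPM in WT members against 70.1 in other cells, and at 66.9 against 55.6 in KO. At least 2 UMIs over these 6 lists were nonetheless found in 196 WT (90.7%) and 176 KO members (92.1%), and in 94.6% and 95.2% of all cells, so the lists do not separate the members from the rest cell by cell. The samples are labelled as cardiac neural crest cells. Members found by Irx3 alone had Sox9 and Col3a1, a mesenchymal collagen, at 257 and 204 CPM in WT, against 264 and 197 in all other cells. In KO these levels were 182 and 87.7, against 229 and 150. The markers thus do not show that every member is a neural tube cell.

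Next, the members were placed on the dorsal to ventral axis by genes outside the rule. Within each library they were set beside dorsal neural cells (at least 2 Sox UMIs and a UMI of a dorsal gene of the rule, 102 WT and 83 KO cells) and ventral neural cells (at least 2 Sox UMIs and a UMI of Nkx6-1 or Olig2, 128 and 109 cells). These groups were also cut by measured UMIs, and the values are a description. A list of 18 dorsal genes that the rule did not use summed to 613 CPM in WT members, 1961 in dorsal cells and 372 in ventral cells. In KO the sums were 588, 1678 and 431. Members were below dorsal cells by a log2 ratio of -1.68 (-1.91 to -1.45) in WT and -1.51 (-1.76 to -1.27) in KO, and above ventral cells by 0.72 (0.36 to 1.09) and 0.45 (0.11 to 0.80).

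The named dorsal factors followed this order. Pax3, a paired-box gene of the dorsal wall, was at 208 CPM in dorsal cells, 91.3 in members and 55.6 in ventral cells of WT, and at 217, 110 and 56.1 in KO. In the same order Zic1, a zinc finger factor, was at 440, 137 and 81.3 in WT and at 376, 119 and 94.9 in KO. Its relative Zic5 was at 294, 69.7 and 29.9 in WT and at 323, 66.9 and 34.5 in KO. The homeobox gene Msx3 was at 152, 55.2 and 29.9 in WT and at 132, 69.3 and 34.5 in KO. For each of these genes the members lay between their neighbours. For all 4, cells with enough Sox UMIs but no patterning UMI also lay between the dorsal and ventral cells. Pax3 was at 79.3 and 70.6 CPM there, and Zic1 at 137 and 128, in WT and KO. The place between was therefore not particular to the members. Msx1, a target of BMP signalling, was at 322, 69.7 and 17.1 in WT and at 254, 38.2 and 12.9 in KO. Of the 5 dorsal list genes with at least 20 UMIs in each pair of groups in both libraries, 4 had the order dorsal over members over ventral in both. Over all 4816 such genes, 4.94% had that order in both libraries. Msx1 had too few UMIs in ventral cells to be counted there.

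The ventral side gave the reverse order. Ptch1, the receptor and transcriptional target of Sonic hedgehog, was at 265 CPM in dorsal cells, 588 in members and 1052 in ventral cells of WT. In KO it was at 270, 416 and 966. It was the only gene of the ventral list with enough UMIs for this count, and 4.40% of all genes had the rising order in both libraries. Gas1, a Sonic hedgehog co-receptor that is repressed by the pathway, was at 440, 286 and 167 in WT and at 423, 237 and 129 in KO. Cdon and Boc, the other co-receptors of this class, were both more than 2-fold lower in members than in dorsal cells in both libraries. Cdon was at 38.4 CPM in WT members and 104 in dorsal cells, and at 26.3 and 122 in KO. The ventral homeobox gene Nkx6-2 had 3 and 4 UMIs in members.

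**Figure D2:**
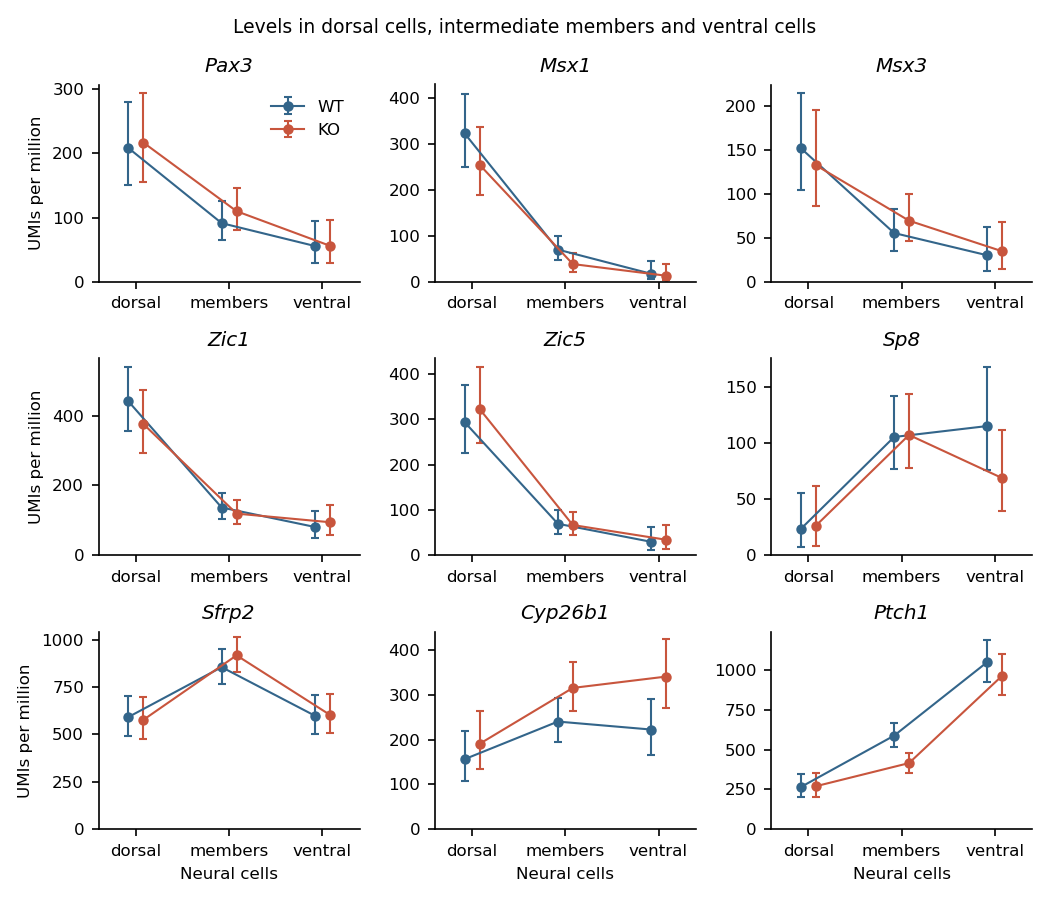
Levels of 9 genes (y axis, UMIs per 1000000, CPM, each panel from 0) in dorsal neural cells, members and ventral neural cells (x axis) of WT and KO; error bars are 95% Poisson intervals for counting error. Pax3, Msx1, Msx3, Zic1 and Zic5 are highest in dorsal cells and Ptch1 in ventral cells with the members between, whereas Sfrp2 is highest in the members (855 and 917 CPM).

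Few genes were past 2-fold against either neighbour. Against dorsal cells, 17 of 4947 genes were at least 2-fold higher in members in both libraries (0.344%) and 20 were lower (0.404%). Against ventral cells, 16 of 5135 were higher (0.312%) and 10 were lower (0.195%). These counts include Pax6, Irx3 and Dbx1 and the excluded genes Olig3, Wnt1, Nkx6-1 and Olig2, which the rule fixed. Among listed genes, Sp8, a zinc finger factor of intermediate progenitors, was above dorsal cells (106 against 23.7 CPM in WT, 108 against 26.5 in KO) and was at 115 and 69.0 in ventral cells. Of the same intermediate list, Gbx2 and Irx2 were highest in dorsal cells, where Gbx2 was at 109 and 58.2 and Irx2 at 71.0 and 84.7, against 84.1 and 57.3 and 48.0 and 69.3 in members. Sox21, a SoxB2 factor, was at 93.7 and 52.6 in members and 42.6 and 10.6 in dorsal cells. Axin2, a Wnt target, and Fzd10, a Wnt receptor gene, were more than 2-fold lower in members than in dorsal cells in both libraries. So were the dorsal genes Zic1, Zic5 and Msx1. Axin2 was at 81.7 and 88.4 in members and 213 and 228 in dorsal cells. Epha7, an ephrin receptor, and Fst, a BMP and activin antagonist, were more than 2-fold higher in members than in ventral cells. Fst was at 96.1 and 110 in members and 42.8 and 43.1 in ventral cells. Elavl4, an RNA-binding protein gene of early neurons, was more than 2-fold lower in members, at 28.8 and 57.3 against 115 and 155 in ventral cells.

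Sfrp2 was higher in members than in either neighbour, at 592 and 577 CPM in dorsal cells and 599 and 604 in ventral cells of WT and KO, below the 855 and 917 of the members. Neural cells without a patterning UMI had 356 and 194. Cyp26b1 was at 156 and 191 in dorsal cells, 240 and 315 in members and 222 and 341 in ventral cells. The 15 intermediate genes outside the rule gave little more. For their sum, members over ventral cells were at log2 ratios of 0.06 (-0.29 to 0.42) in WT and 0.25 (-0.14 to 0.64) in KO. Over dorsal cells the ratios were 0.29 (-0.09 to 0.68) and 0.55 (0.10 to 1.01). These genes summed to 468 and 425 CPM in members, 384 and 291 in dorsal cells and 449 and 358 in ventral cells. Irx5 (53 and 35 UMIs), Sp8 (44 and 45) and Gbx2 (35 and 24) gave most of them, while the proneural and dorsal interneuron genes Neurog1, Prdm12 and Ptf1a had 5, 1 and 1 UMIs in WT members and 2, 1 and 0 in KO members, and Gsx2 had none in either.

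The 19 neural progenitor genes summed to 5594 and 5421 CPM in WT and KO members, with the highest counts for Sox11 (778 and 777 UMIs), a SoxC factor, and Ptn (271 and 256), which encodes a secreted growth factor. Sox21 was the 1 gene of this list with an interval below 0 (39 and 22 UMIs, log2 ratio of KO over WT -0.83, -1.66 to -0.04). The 33 genes of neurogenesis and neurons summed to 521 and 600, and were lower than in ventral cells, where they summed to 1014 and 983 (log2 ratio -0.96 in WT and -0.71 in KO). They were at 412 and 439 in dorsal cells (0.34, -0.03 to 0.72 and 0.45, 0.09 to 0.83) and at 597 and 626 in all other cells. Elavl2, an early neuronal RNA-binding protein, was the only gene of the list with 50 UMIs (47 and 49). Tubb3, the neuronal tubulin, had 14 UMIs in each library, and Neurog2, the proneural factor, had 10 and 14.

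The paralogue groups of the Hox genes switch on in order from hindbrain to trunk. Hoxa3 had 54 UMIs in WT and 37 in KO members (130 and 88.4 CPM). Hoxb3 had 40 in each, Hoxb2 had 34 in each, and Hoxb8, a trunk gene, had 34 and 24. Hoxb9 had 6 UMIs in WT and 0 in KO. At 1000 UMIs per cell, Hoxb3 had a UMI in 8.33% of WT members (4.93 to 13.0) and 4.06% of erythroid cells (2.53 to 6.14), and in 5.76% (2.91 to 10.1) and 3.39% (1.25 to 7.23) in KO. These intervals overlapped in both libraries, and the difference between the shares was not tested. Hoxb8 was found in 7.35% of WT members (4.17 to 11.8) and 1.55% of erythroid cells (0.67 to 3.03), which were apart, and in 8 of 191 KO members and 0 of 177 erythroid cells, with intervals that overlapped. No axial position is read from these counts. Otx2, En1 and En2, genes of the forebrain and midbrain, had 0, 0 and 0 UMIs in WT and 1, 0 and 0 in KO. The hindbrain segment genes Egr2 and Fgf3 had 2 and 23 UMIs in WT and 3 and 7 in KO. The list of 28 Hox genes summed to 716 CPM in WT and 559 in KO members (log2 ratio -0.36, -0.61 to -0.10). In all other cells the sum went from 542 to 423 (log2 ratio -0.36, -0.40 to -0.32), so the ratio was the same outside the members. It turned to 0.10 (-0.93 to 1.13) without members that had UMIs of other lineages. The 4 Hox genes with at least 50 UMIs had ratios between -0.55 and -0.01, and none passed 2-fold.

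**Figure D3:**
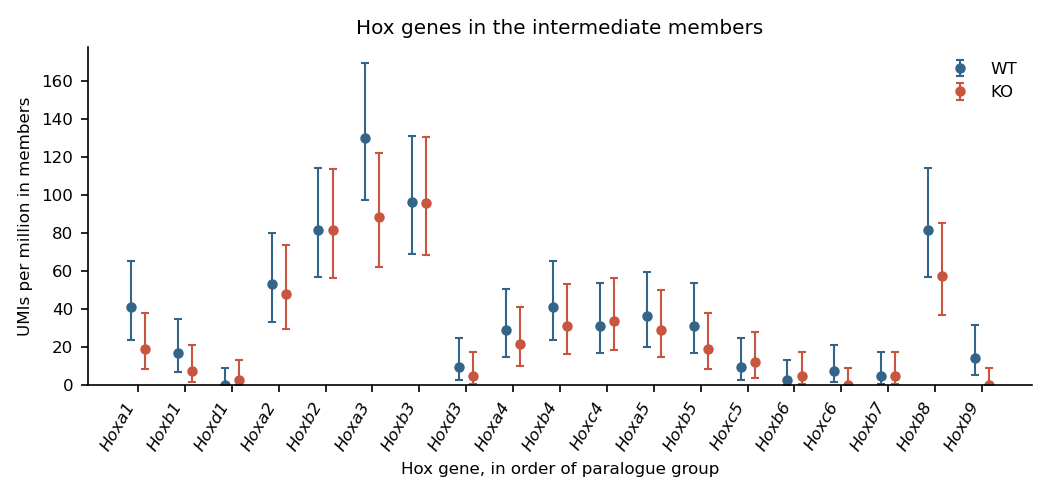
Level of each Hox gene with a UMI in members (y axis, CPM) in order of paralogue group (x axis), for WT and KO; error bars are 95% Poisson intervals for counting error. Groups 2 and 3 and Hoxb8 have the most UMIs, and the intervals of WT and KO overlap for every gene.

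KO members were then set beside WT members, to see which transcripts differed where Prdm6 was floxed. Over the 3473 genes with at least 50 UMIs in the members of both libraries together, the median log2 ratio was -0.01, and the range between the 5% and 95% quantiles was -0.64 to 0.56. A ratio of at least 2-fold was found for 20 genes that were higher in KO (0.576%) and 35 that were lower (1.01%). With a trimmed mean scaling, whose shift was -0.05, the split was 26 and 25. In all other cells, which held more UMIs, 5 and 3 of the same genes passed 2-fold. Genes are ranked here by the bound of their interval nearest 0.

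Genes higher in KO members by this measure were led by Hist1h2ae, a replication-dependent histone gene, with 21 UMIs in WT and 89 in KO (log2 ratio 2.08, 1.38 to 2.84). Hist1h1b, the linker histone gene, had 19 and 54 (1.50, 0.72 to 2.34). Both were also higher in KO in all other cells (1.70 and 1.82), and Hist1h2ae had a UMI in 10.6% of WT erythroid cells and 36.3% of those in KO. Gm42418 and AY036118 were at 1.26 and 1.20, against 1.20 and 1.21 in other cells. Ncl, the nucleolar protein nucleolin, had 1005 and 1643 UMIs (0.70, 0.59 to 0.82) against 0.67 in other cells. For these 5 genes the ratio outside the members was at least 0.67.

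For 4 further leading genes the ratio in members was above that of other cells. Zc3h13, of the RNA methylation complex, had 18 and 56 (1.63, 0.84 to 2.48) with 0.36 in other cells. Ctdspl2 had 21 and 57 (1.43, 0.69 to 2.23) with 0.46, and Rbm28 had 35 and 78 (1.15, 0.56 to 1.77) with 0.08. Nusap1, a spindle protein, had 74 and 144 (0.95, 0.54 to 1.38) with 0.58. The difference between members and other cells was not tested for any of them.

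The genes lower in KO members were led by the 5 embryonic globins. Hbb-bh1 had 788 UMIs in WT and 182 in KO (log2 ratio -2.12, -2.36 to -1.89), and the ratios of Hbb-y, Hba-a1, Hba-a2 and Hba-x lay between -1.81 and -1.50. In other cells the globins together were lower in KO by a ratio of -0.94. Muscle genes came next. Myl9, the smooth muscle myosin light chain, had 59 and 15 UMIs (-1.98, -2.91 to -1.15), and Myl4, the atrial light chain, had 173 and 60 (-1.54, -1.98 to -1.10). All 8 cardiac markers with 50 UMIs were below 0, with a median of -0.82, and the list as a whole was at -0.87 in members and -0.30 in other cells. Slc25a37, the mitochondrial iron carrier of erythroid cells, Pcdh18, a protocadherin, and Tmem123 completed the 10. Pcdh18 had 51 and 18 UMIs (-1.51, -2.37 to -0.71) with -0.21 in other cells. Globin, cardiac and erythroid transcripts are not made by neural progenitors. Their part in the other differences between the libraries was not tested.

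**Figure D4:**
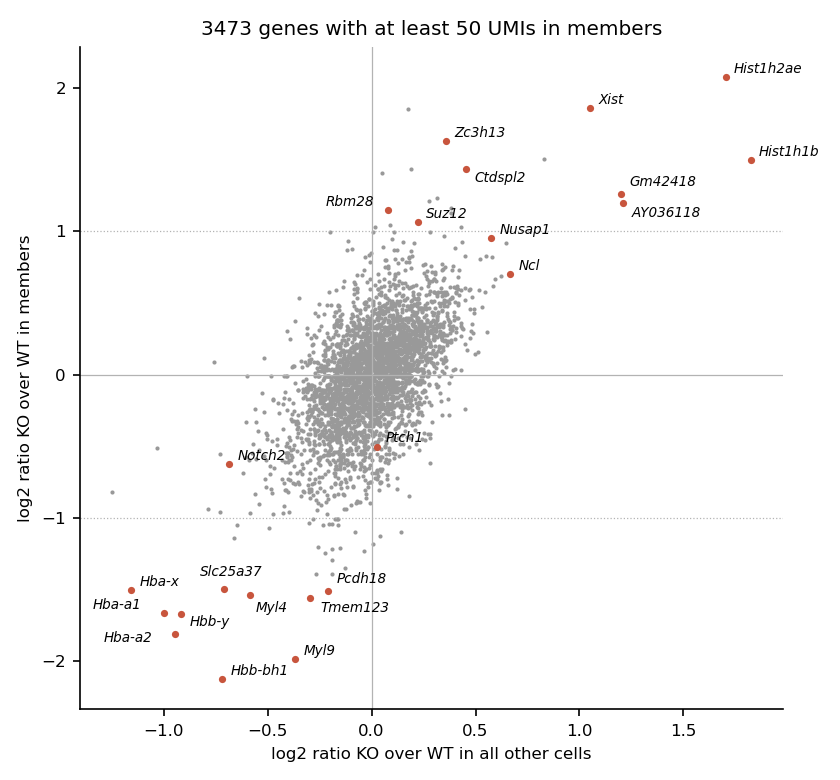
Log2 ratio of KO over WT in members (y axis) against that in all other cells (x axis) for 3473 genes with at least 50 UMIs in members; red points are leading genes named in the text with Ptch1, Notch2, Suz12 and Xist, and dotted lines mark a 2-fold ratio. Histone genes, Gm42418 and AY036118 are high and globins are low on both axes, whereas Rbm28, Pcdh18 and Ptch1 lie away from 0 in members and between -0.21 and 0.08 in other cells.

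Signalling pathways were then compared through gene lists, each beside the median of -0.01 over all genes and the shares of 0.576% and 1.01% past 2-fold. The Sonic hedgehog list (13 genes) summed to 1300 CPM in WT and 1020 in KO members (log2 ratio -0.35, -0.54 to -0.16), against -0.07 (-0.10 to -0.04) in other cells. All 4 of its genes with 50 UMIs were below 0, with a median of -0.34, and none passed 2-fold. Ptch1 was the gene of the list with the highest count, 245 UMIs in WT and 174 in KO members. Its level went from 588 to 416 CPM (-0.50, -0.79 to -0.22). In all other cells the Ptch1 ratio was 0.03. Ptch1 had a UMI in 55.1% of WT and 53.9% of KO members, and in 34.3% and 42.3% of erythroid cells. At 1000 UMIs per cell it was found in 37.7% of WT members (31.1 to 44.8) against 21.1% of erythroid cells (17.6 to 24.9). In KO the thinned shares were 29.8% (23.5 to 36.9) and 23.2% (17.2 to 30.1), and these intervals overlapped. Dorsal cells had a Ptch1 level of 265 and 270, and ventral cells 1052 and 966, so the level of KO members lay further from that of ventral cells than the level of WT members. The difference between these ratios was not tested. With members that had 2 UMIs of other lineages left out, 20 WT and 15 KO cells remained and the list ratio was 0.18 (-0.54 to 0.90). With the cardiac list set apart, which kept 86 and 75 cells, it was -0.38 (-0.69 to -0.07). Mesoderm and cardiac marker sums were also lower in KO members (-0.30 and -0.87), and their part in the result was not tested. Gas1 (119 and 99 UMIs), Gli3 (73 and 67) and Smo (33 and 25) had intervals that spanned 0.

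The ventral list outside the rule, in which Ptch1 has most UMIs, was at -0.42 (-0.68 to -0.16). It turned to 0.037 (-0.85 to 0.92) in the 20 WT and 15 KO members left without other lineages, and was at -0.57 (-1.01 to -0.14) with cardiac genes apart. The dorsal list was at -0.06 (-0.32 to 0.20) and the intermediate list at -0.14 (-0.44 to 0.16), with 3 of 5 and 1 of 3 of their genes with 50 UMIs above 0. Irx5 was at -0.61 (-1.27 to 0.04) and Sp8 at 0.02 (-0.61 to 0.66). Neural progenitor genes were at -0.05 (-0.13 to 0.04), with Sox11 at -0.01. None of the genes of these 4 lists passed 2-fold.

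The Notch list (21 genes) summed to 1713 and 1414 CPM in WT and KO members (-0.28, -0.44 to -0.12). This rested on Notch2, a receptor, with 296 and 193 UMIs (-0.62, -0.89 to -0.36). Notch2 was as low in all other cells of KO (-0.69). With at least 2 patterning UMIs per member the list was at -0.0072. Of the 8 genes with 50 UMIs, 5 were above 0, and their median was 0.06. Hes1 and Hes5, the target genes that keep progenitors undifferentiated, were at -0.24 (54 and 46 UMIs) and -0.54 (42 and 29), with intervals that spanned 0. The FGF list was at -0.30 (-0.52 to -0.09) in members and -0.22 in other cells. Spry2, a feedback inhibitor of FGF signalling, had 143 and 95 UMIs (-0.60, -0.99 to -0.21) with -0.39 in other cells. The ligand gene Fgf3, named after its values were seen, had 23 UMIs in WT and 7 in KO members (-1.72, -3.19 to -0.46) with 0.10 in other cells. It was under the minimum of 50 UMIs.

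The retinoic acid list carried many UMIs (2264 and 2368) and was at 0.06 (-0.03 to 0.14) in members and in other cells. Crabp1, the retinoic acid binding protein, gave most of these, with 1137 and 1241 UMIs (0.12, 0.00 to 0.24), which turned to -0.29 after thinning. Nr2f2, an orphan nuclear receptor gene, had 248 and 185 (-0.43, -0.71 to -0.15) with -0.19 in other cells, and turned to 0.51 without members of other lineages. Cyp26b1 had 100 and 132 (0.39, 0.01 to 0.78) with 0.13 in other cells, and turned to -0.074 without members of other lineages, cardiac genes apart. The Wnt list was at 0.06 (-0.06 to 0.17), with Sfrp2 at 0.10 (-0.11 to 0.31) and Sfrp1, a second inhibitor, at 0.11 (-0.22 to 0.45). In other cells the Wnt list was at -0.11 (-0.13 to -0.09), and the difference from members was not tested. The BMP list was at -0.22 (-0.38 to -0.05) in members and -0.10 in other cells. It turned to 0.16 (-0.26 to 0.57) after thinning and was at -1.04 without members that had UMIs of other lineages. Id2, a target of BMP signalling, had 225 and 156 UMIs (-0.54, -0.84 to -0.24) with -0.16 in other cells, and turned to 0.22 when cells were thinned to 1000 UMIs, while Id3 was at -0.13 (-0.59 to 0.33) and Bmpr1a at 0.10 (-0.36 to 0.55). No gene of the retinoic acid, Wnt, BMP, Notch or FGF lists with 50 UMIs passed 2-fold.

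**Figure D5:**
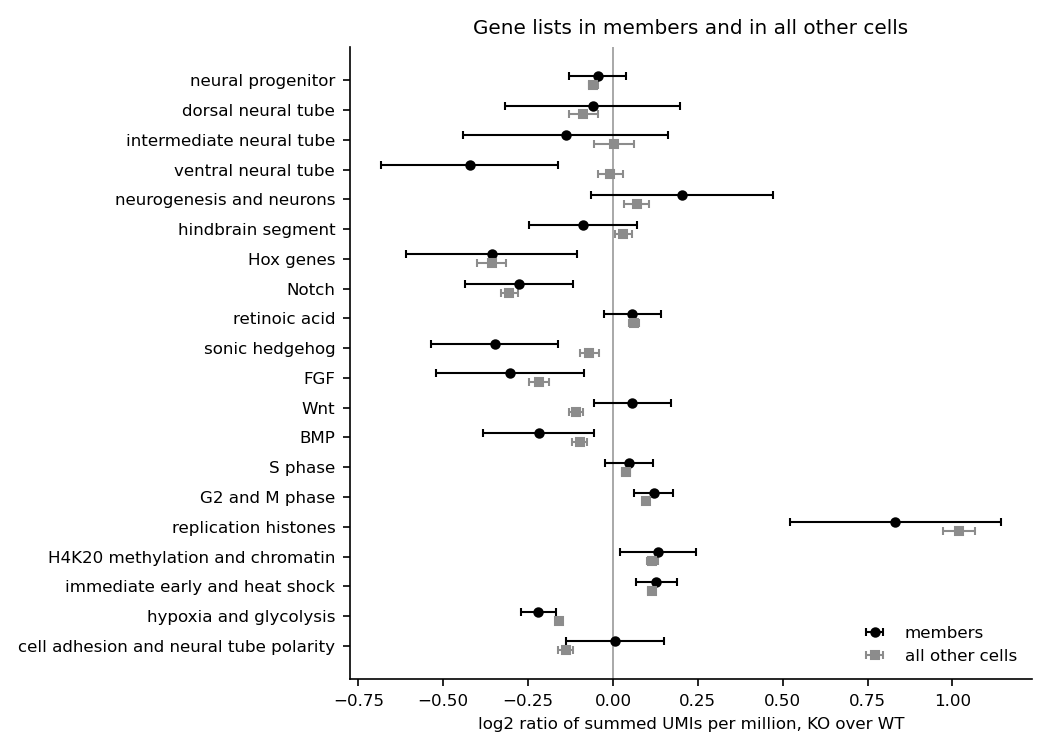
Log2 ratio of KO over WT (x axis) of the summed CPM of 20 gene lists (y axis) in members (black circles) and all other cells (grey squares); error bars are 95% counting intervals. The Sonic hedgehog list is at -0.35 in members and -0.07 in other cells and the ventral list is at -0.42 and -0.01 (both lists were above 0 in the few members left without other lineages), while the Hox, Notch and histone lists differ from 0 on the same side and by like amounts in both.

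The 43 S phase genes summed to 7453 and 7698 CPM in WT and KO (0.05, -0.03 to 0.12) and the 53 genes of G2 and M phase to 11275 and 12252 (0.12, 0.06 to 0.18), against 0.04 and 0.10 in other cells. Of 34 S phase genes with 50 UMIs, 20 were above 0 and none passed 2-fold. Of 41 G2 and M phase genes, 27 were above 0 and none passed 2-fold. Hmgb2, a chromatin protein of dividing cells, had 605 and 709 UMIs (0.22, 0.06 to 0.38). The S phase sum in members over dorsal cells was at log2 ratios of 0.04 (-0.05 to 0.13) in WT and 0.11 (0.02 to 0.20) in KO. Over ventral cells the ratios were -0.04 (-0.12 to 0.05) and 0.06 (-0.03 to 0.14). The replication histone list was at 0.83 (0.52 to 1.14) in members and 1.02 in other cells. Its 2 genes with 50 UMIs, Hist1h2ae and Hist1h1b, both passed 2-fold, while Hist1h4i had 17 and 26 UMIs and Hist1h2ap 15 and 7. These transcripts mostly lack a poly(A) tail, and near-identical copies may share reads.

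Prdm6 itself was at the limit of detection, with 2 UMIs in WT and 1 in KO members, from 0.926% and 0.524% of them, against 0.559% and 0% of erythroid cells. No UMI in 182 KO erythroid cells allows a share of up to 1.65%. No ratio is given. The 18 genes of histone H4 lysine 20 methylation and chromatin were at 0.13 (0.02 to 0.24) in members and 0.12 in other cells. Suz12, a Polycomb repressive complex subunit, was the 1 gene of the list past 2-fold, with 29 and 61 UMIs (1.07, 0.40 to 1.76) against 0.22 in other cells. Ezh2, the catalytic subunit of that complex, had 193 and 221 UMIs (0.19, -0.10 to 0.47), and Eed had 51 and 45 (-0.19, -0.80 to 0.42). Kmt5a, which adds the first methyl group to lysine 20, had 116 and 141 (0.27, -0.09 to 0.64). Chd7, a chromatin remodeller, had 103 and 143 (0.47, 0.09 to 0.85) against 0.28 in other cells, and was at -0.25 after thinning. Among crest and guidance genes, Sox9 was at -0.44 (-0.97 to 0.09), Tfap2b had 5 and 0 UMIs, Bmp4 11 and 8, Sema3c 10 and 4 and Sema6d 1 and 4, all with intervals that spanned 0.

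Metabolic and stress lists lay on the same side of 0 in members and in other cells, and the differences between them were not tested. The glycolysis list was at -0.22 (-0.27 to -0.17) in members and -0.16 in other cells. Its highest counts were those of Gapdh (1541 and 1310 UMIs, -0.24) and Ldha (1002 and 936, -0.11), and Eno1 was at -0.59 in members and -0.56 in other cells. The heat shock and immediate early list was at 0.13 and 0.11, and at -0.030 without members of other lineages. Hsp90aa1, a chaperone, had 1331 and 1490 UMIs (0.16), and the dissociation response genes Fos and Atf3 had 0 UMIs in both libraries. Cell adhesion and polarity genes were at 0.01 (-0.14 to 0.15) in members and -0.14 in other cells. Within this list Itga6, an integrin subunit, had 67 and 39 UMIs (-0.79, -1.40 to -0.20) with -0.15 in other cells, and Ptk7, of the planar polarity pathway, had 49 and 28 (-0.82, -1.54 to -0.12) with -1.25. None of the genes of these 3 lists passed 2-fold.

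Finally, the members were divided by Pax6, a gene of the rule, so the values are a description. Those without a Pax6 UMI included the 84 WT and 79 KO cells found by Irx3 alone. Members with a Pax6 UMI had more of 4 genes already named as leading the members. Foxb1 was at 183 against 83.6 CPM in WT (log2 ratio 1.13, 0.27 to 2.04) and 187 against 60.2 in KO (1.63, 0.66 to 2.74). Cyp26b1 was at 343 against 133 in WT (1.37, 0.71 to 2.06) and 412 against 191 in KO (1.10, 0.53 to 1.71). Sfrp2 was at 0.41 (0.10 to 0.72) and 0.50 (0.19 to 0.81), and Msi1 at 0.47 (0.07 to 0.87) and 0.58 (0.13 to 1.04). For these 4 genes the interval was above 0 in both libraries, and the share of all genes with such intervals is not given. Hes5 differed in WT (1.43, 0.40 to 2.57) and had an interval that spanned 0 in KO (0.79, -0.41 to 2.10). Members with Irx3 alone had Sox9 at 257 and 182 CPM and Col3a1 at 204 and 87.7, where members with Pax6 had 131 and 106 of Sox9 and 61.0 and 76.4 of Col3a1.

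Members with Dbx1 or Dbx2, which are genes of the rule, were few, and their values are a description. Zic1 was at 13.9 CPM in the 35 WT cells and 21.8 in the 21 KO cells, a log2 ratio to the other members of -3.55 (-8.88 to -1.02) and -2.59 (-7.92 to -0.04), each from 1 UMI. Sfrp2 was at 1331 and 1289 (0.82, 0.46 to 1.16 and 0.56, 0.14 to 0.97), and Crabp1 at 0.26 (0.04 to 0.47) and 0.41 (0.17 to 0.64). Cells just outside the rule had lower levels of Sfrp2, the first of the genes that led the members. Sfrp2 was at 220 and 253 CPM in cells with 1 Sox UMI, against 433 and 610 in members with exactly 2 and 1337 and 1241 in members with 3 or more. Cells with enough Sox UMIs and no patterning UMI were at 356 and 194.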

How the data were processed

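Single-cell 3′ libraries (10x Genomics Chromium v3.1), 1 per genotype, were processed by the authors with Cell Ranger 1.3.1 and Scanpy. The build named in the submitters' processing notes was mm10. The deposited values are a signal per cell and gene, the square root of UMI counts scaled to a fixed total per cell. Per the study's methods, cells under 200 or over 6000 UMIs, genes in under 3 cells and mitochondrial and ribosomal UMIs had been removed, doublets had been treated by the authors, and no doublet caller was run here. UMI counts were recovered by squaring each value and dividing by the smallest square of the cell. All values were whole within 0.01. Libraries held 20781384 (WT) and 18936857 (KO) UMIs, and cells 533 to 4588.

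The members and gene lists were chosen with earlier results of these data known. UMIs were summed over cells and expressed per 1000000 UMIs of the same cells (CPM). Shares have Clopper-Pearson intervals, levels exact Poisson intervals and ratios exact conditional intervals at 95%. These cover counting error only. A ratio was counted past 2-fold among genes with 50 UMIs in both libraries together, or 20 UMIs per library against neighbouring cells. A count of 0 was given a limit of 3 counts. Named genes were the largest of each list and those past 2-fold, the 10 per direction with the interval bound farthest from 0 (Xist, Tsix and Y-linked genes apart), the 10 most raised in members, and Prdm6 with genes the study described. A few genes that these rules name are not reported here. Coordinates are of GENCODE vM21 on GRCm38, where 17917 of 18131 symbols matched. No alignment parameters were given in the sources used here. The interval code was checked on simulated data. Python 3.11.15, numpy 2.4.6, scipy 1.17.1 and pandas 2.3.3 were used. Alternatives were 2 scalings, a per-cell mean, thinning to 1000 UMIs, stricter rules and members left out.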

Additional observations from a re-analysis of the deposited data

Results flagged for a closer look

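Ttn, the sarcomere protein titin, had a log2 ratio of KO over WT of -0.70 (-1.21 to -0.20) in members, from 89 and 55 UMIs, and of 0.08 (0.03 to 0.12) in all other cells. The counting intervals lay on opposite sides of 0, and the difference between them was not tested.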

How the results depend on the processing

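Each genotype had 1 library. No paired analysis was possible because no replicate numbers were shared beyond the single library of each group. The log2 ratio of the KO over the WT share of members stayed within its counting interval under all 8 alternatives, at -0.12 to 0.16, while stricter rules kept fewer members. Of 180 values of gene lists under alternatives, 169 stayed within counting error. Leaving out members with 2 UMIs of other lineages kept only 20 WT and 15 KO cells and turned the ventral list to 0.037, the Hox list to 0.10, the Sonic hedgehog list to 0.18, the heat shock list to -0.030 and Nr2f2 to 0.51, and moved the BMP list to -1.04. Thinning kept 72 members of each library and turned the BMP list to 0.16, Id2 to 0.22, Crabp1 to -0.29 and Chd7 to -0.25, and moved the WT share with Pax6 to 30.6% and that with Irx3 alone to 51.4%. Requiring 2 patterning UMIs moved the Notch list to -0.0072 and the heat shock list to 0.0070. Alternatives chosen after seeing the data were as follows. Without members found by Irx3 alone the retinoic acid list was at 0.16. Leaving out members with other lineage markers, cardiac genes apart, gave -0.15 for that list, 0.19 for S phase, -0.24 for Crabp1 and -0.074 for Cyp26b1.

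Counts of genes past 2-fold, higher and lower in KO, were 96 and 213 at 20 UMIs, 6 and 7 at 100 UMIs and 1618 and 2633 at 1 UMI. Under other members and scalings, added after seeing the data, they were 4 and 5 after thinning, 11 and 14 with 2 patterning UMIs, 5 and 3 without other lineages, 13 and 9 with cardiac genes apart, and 17 and 15 without members found by Irx3 alone. Fewer cells leave fewer genes at 50 UMIs. Ptch1 was below 0 in the 9 alternatives run, nearest 0 at -0.11 without other lineages.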
